A study of Mus musculus with 26 samples.

Results

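Genes of RNA polymerase I (Pol I) and of ribosome biogenesis were followed through the decay of labelled RNA in murine oligodendrocyte progenitor cells (OPCs) and oligodendrocytes (OLs). The members were taken by gene symbol alone: the Polr1 subunits, the numbered Nop, Utp, Rrp and Nol genes, Tsr1 to Tsr3, Imp3, Imp4, Bop1, Wdr12, Pes1, Heatr1, Ncl, Npm1, Fbl and Dkc1. The symbol rule uses no measured value. Of 10104 transcripts listed for either cell type, under 10103 gene symbols, 52 were members. All 52 were listed for OLs and 46 for OPCs, and the 46 listed for both cell types had a half-life in all 5 replicates. Nol3, Nol8, Nol10, Nop14, Rrp36 and Utp14a were listed for OLs only. By role, 4 members code for Pol I subunits, 5 for proteins of small nucleolar ribonucleoproteins (snoRNPs), 27 for factors of the small ribosomal subunit, 12 for factors of the large subunit and 2 for the abundant nucleolar proteins nucleolin and nucleophosmin. The other 2, Nol3 and Nol4l, match by name only and are described apart.

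Ribosomes are built in the nucleolus. Pol I transcribes the ribosomal RNA precursor, snoRNPs guide its chemical modification, and the small-subunit processome and the large-subunit assembly factors fold, cut and trim it while ribosomal proteins are added. The pathway is among the most costly of a growing cell, and it is known to be high in dividing progenitors and to be lowered as many lineages leave the cell cycle and differentiate.

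OPCs had been derived from epiblast stem cells of 129S/SvEv mouse embryos by way of neural rosettes, and were kept in medium with bFGF and PDGFA. OLs had been obtained from such OPCs in medium with noggin, IGF-1, cyclic AMP, NT3 and the thyroid hormone T3. Both were cultures of 1 origin, so they model oligodendrocyte differentiation in a dish and not in an animal. In both cell types the uridine analogue 5-ethynyluridine (5-EU) was given for 24 h, in OLs after 40 h of differentiation, and was then replaced by uridine. Labelled RNA was coupled to biotin, pulled down and sequenced after 0, 1, 2, 4 and 6 h of chase, in 3 OPC replicates (15 libraries) and 2 OL replicates (10 libraries). The replicates were biological ones, and each OL replicate had a matching OPC replicate, whose number is not given in the sources used here. A further OPC sample without biotin was not analysed here. Values are FPKM, fragments per transcript length and library size, and the later time points had been scaled to a labelled spike-in.

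Read counts cannot be recovered from FPKM, so the depth is unknown, and 3 replicates against 2 limit the precision. OL markers went with the labels: all 7 were listed for OLs and 2 for OPCs, and their FPKM summed to 6053 and 2786 in the OL replicates and to 37.6 to 55.1 in the OPC replicates. The 4 OPC markers did not separate the groups in the same way, since they summed to 186 to 307 FPKM in OPCs and to 530 and 501 FPKM in OLs, a higher sum that was carried by Gpr17 (5.01 to 6.61 FPKM in OPCs, 323 and 299.5 FPKM in OLs). Pdgfra was also higher in both OL replicates, Cspg4 was lower in both and Ptprz1 overlapped. Of the astrocyte markers 1 of 4 was listed for OPCs and 3 of 4 for OLs, of the neuronal markers 1 and 2 of 4, and no marker of pluripotent cells or microglia was listed. OPC replicate 2 stood apart in its chase, since 14.8% of transcripts were listed at 0 at 4 h in it and 2.23% and 5.65% in the other OPC replicates.

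Protein features came first, since the study asked how lysine (Lys) and phenylalanine codons act on decay and the symbols did not use them. All 52 members could be matched to coding sequences of GRCm38. Lys made up a median of 8.06% of their codons, against 5.74% over 10089 transcripts, and the median lay above 81.5% of all transcripts. The choice between Lys codons did not set them apart in the same way: AAA made up a median of 39.6% of the Lys codons of members and 37.5% over all transcripts. UUU made up 47.7% of the phenylalanine codons of members against 44.4%, and G+C at wobble positions of codons was 58.5% against 60.6%. The densest 60 codons of a member held a median of 10.5 Lys codons, against 8 over all transcripts. These are descriptions of gene sequence, with no test. The Lys-rich stretches of 4 members are shown because they make this feature visible. Each is the 30 codons with the most Lys in the coding sequence, read in frame from 5′ to 3′, with AAA codons in capitals and AAG codons left in lower case. They come from the coding exons of Nop58 on chromosome 1, Nop56 on chromosome 2, Dkc1 on chromosome X and Ncl on chromosome 1.
Nop58: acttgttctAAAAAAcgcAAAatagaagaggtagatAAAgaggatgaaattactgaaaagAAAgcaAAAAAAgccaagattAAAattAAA
Nop56: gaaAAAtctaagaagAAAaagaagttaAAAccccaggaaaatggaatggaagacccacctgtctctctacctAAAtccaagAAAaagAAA
Dkc1: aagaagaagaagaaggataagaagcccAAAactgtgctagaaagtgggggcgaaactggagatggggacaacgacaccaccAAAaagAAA
Ncl: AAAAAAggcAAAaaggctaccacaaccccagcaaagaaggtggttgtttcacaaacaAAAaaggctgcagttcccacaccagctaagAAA

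In these stretches AAA and AAG were used 9 and 2 times in Nop58, 6 and 6 times in Nop56, 3 and 8 times in Dkc1 and 5 and 5 times in Ncl. Over whole coding sequences AAA made up 62.5% of the 72 Lys codons of Nop58, 35.9% of 64 in Nop56, 33.9% of 56 in Dkc1 and 55.6% of 90 in Ncl. Nop58 and Nop56, which sit side by side in the box C/D snoRNP, thus lay on either side of the median over all transcripts.

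Promoters were read as the 250 bases before and 50 after a gene's start in RefSeq (GRCm38.p6), which held 41 of the 52 members. The E-box CACGTG, which reads the same on both strands and is the site of Myc and related factors, was present in 12 of these 41 (29.3%), against 12% of 8089 listed genes with a window and 7.15% of all 32851 windows. The 12 were Imp4, Nol11, Nop2, Pes1, Rrp7a, Tsr1, Tsr2, Utp14b, Utp18, Utp20, Utp25 and Utp4. TATAAA, searched on both strands, was present in 12.2% of members and 7.68% of listed genes. A match describes letters in a window and no binding was measured. The windows of 4 members whose 0 h level changed between the cell types are shown, with the E-box in capitals. They lie at chr6:125131633-125131932 on the plus strand (Nop2), chr8:106893390-106893689 on the plus strand (Utp4), chr10:88826765-88827064 on the minus strand (Utp20) and chr1:78658190-78658489 on the plus strand (Utp14b).
Nop2: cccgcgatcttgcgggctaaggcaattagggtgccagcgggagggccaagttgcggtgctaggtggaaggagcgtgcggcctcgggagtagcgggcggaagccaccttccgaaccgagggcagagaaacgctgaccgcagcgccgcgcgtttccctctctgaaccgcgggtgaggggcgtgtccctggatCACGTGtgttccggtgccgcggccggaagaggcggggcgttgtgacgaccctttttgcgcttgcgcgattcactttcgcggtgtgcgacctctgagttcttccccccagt
Utp4: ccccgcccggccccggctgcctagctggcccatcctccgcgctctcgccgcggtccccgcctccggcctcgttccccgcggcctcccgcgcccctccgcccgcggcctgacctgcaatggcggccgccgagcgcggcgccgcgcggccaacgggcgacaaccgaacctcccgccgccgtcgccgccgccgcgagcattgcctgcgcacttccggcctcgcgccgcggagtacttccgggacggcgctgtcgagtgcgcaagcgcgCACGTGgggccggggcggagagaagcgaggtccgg
Utp20: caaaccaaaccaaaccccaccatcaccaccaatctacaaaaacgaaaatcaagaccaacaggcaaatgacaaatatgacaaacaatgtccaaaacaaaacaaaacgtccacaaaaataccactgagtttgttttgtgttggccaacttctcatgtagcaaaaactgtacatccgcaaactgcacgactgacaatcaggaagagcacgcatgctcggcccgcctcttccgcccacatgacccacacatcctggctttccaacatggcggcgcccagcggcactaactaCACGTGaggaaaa
Utp14b: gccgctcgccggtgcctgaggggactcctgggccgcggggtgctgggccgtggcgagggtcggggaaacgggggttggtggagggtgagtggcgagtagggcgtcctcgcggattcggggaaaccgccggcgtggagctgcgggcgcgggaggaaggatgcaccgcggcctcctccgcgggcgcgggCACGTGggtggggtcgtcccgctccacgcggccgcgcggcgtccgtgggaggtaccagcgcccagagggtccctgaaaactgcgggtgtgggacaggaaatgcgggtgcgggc

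The E-box began 60 bases before the RefSeq start of Nop2 and 63 bases before that of Utp14b. It began 15 bases after the RefSeq start of Utp4 and 37 bases after that of Utp20. The Utp14b transcript measured here starts at chr1:78658038, before the printed window, so this E-box lies downstream of that start. Among members with a window the E-box was in 3 of the 11 that were lower in OLs, in 1 of the 2 that were higher and in 8 of the 23 that were not called.

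The 0 h level is the RNA labelled during 24 h and still present, and it was compared between OLs and OPCs on the log2(FPKM + 1) scale with limma over 8177 transcripts (Benjamini-Hochberg adjusted p under 0.05). Of the 46 members listed for both cell types, 12 were lower in OLs and 2 were higher. Over all transcripts 15.8% were called lower and 13.8% higher. The median change of the members was -0.35 on the log2 scale and that of all transcripts -0.01, and 34 of the 46 members had an estimate under 0. All OL replicates lay below all OPC replicates in 24 members and above them in 3, against 31.4% and 28.0% of all transcripts. Summed over the 46 members, the 0 h level came to 1320, 1319 and 1158 FPKM for OPCs and to 906 and 938 FPKM for OLs, or 0.289% to 0.340% and 0.271% and 0.288% of the FPKM of shared transcripts. The FPKM of 8 genes of dividing cells summed to 403, 528 and 482 in OPCs, where all 8 were listed, and to 78.8 and 36.7 in OLs, where 5 were listed. Their part in the lower members was not tested, and fewer cells of a type cannot be told apart from less RNA per cell in these cultures.

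Pol I subunits were lower in OLs for 3 of 4 genes. Polr1a, the largest catalytic subunit, was at 17.9, 18.5 and 12.6 FPKM in OPCs and at 7.10 and 10.1 FPKM in OLs. Polr1b, the other large subunit of the core, was at 19.7, 23.8 and 19.3 FPKM against 10.1 and 7.74 FPKM. Polr1c, which Pol I shares with RNA polymerase III, was at 68.4, 52.5 and 64.7 FPKM against 38.8 and 34.4 FPKM. In each of the 3 genes the groups did not overlap, and they fell by 0.85 ± 0.26 (SE, limma adjusted p = 0.042), 1.15 ± 0.23 (adjusted p = 0.00857) and 0.74 ± 0.22 (adjusted p = 0.0408) on the log2(FPKM + 1) scale. The call of Polr1c held in 1 of 5 fits with a replicate left out, without OPC replicate 2, and the adjusted p was 0.0628 to 0.183 in the other 4. Polr1d, the other subunit shared with RNA polymerase III, went the other way without passing the test, at 24.2, 29.2 and 20.1 FPKM in OPCs and 29.7 and 32.2 FPKM in OLs.

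Of the snoRNP proteins, 3 of 5 were lower in OLs. Fbl (fibrillarin), the methyltransferase of box C/D snoRNPs, was at 106, 90.1 and 91.5 FPKM in OPCs and at 40.9 and 42.5 FPKM in OLs. Nop10, a small protein of the H/ACA snoRNPs that guide pseudouridylation, was at 101, 77.5 and 67.1 FPKM against 32.6 and 35.8 FPKM. Dkc1 (dyskerin), the pseudouridine synthase of the same particles, was at 7.19, 12 and 6.83 FPKM against 4.04 and 2.80 FPKM. All 3 fell by more than 1 on the log2 scale, by 1.18 ± 0.21 for Fbl (SE, limma adjusted p = 0.0054), 1.21 ± 0.24 for Nop10 (adjusted p = 0.00882) and 1.11 ± 0.29 for Dkc1 (adjusted p = 0.0241). Nop56 and Nop58 did not pass the test. Nop56 was at 37.9, 52.2 and 40.2 FPKM in OPCs and 37.6 and 25.6 FPKM in OLs, and Nop58 at 5.93, 15.5 and 8.0 FPKM and 7.24 and 9.35 FPKM. The transcript listed for Nop58 carries a 3′ UTR of 7723 bases and that of Ncl one of 5901 bases, so the FPKM of these genes refers to these long models.

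Of the small-subunit factors 3 of 23 were lower and 1 was higher, against the 15.8% and 13.8% of all transcripts. Heatr1, Utp4, Utp15 and Nol11 belong to the group that binds the earliest part of the precursor. Heatr1 was at 37.3, 36.9 and 34.9 FPKM in OPCs and 17.8 and 20.6 FPKM in OLs, a fall of 0.89 ± 0.21 on the log2 scale (limma adjusted p = 0.0158). Utp4 was at 34.3, 29.1 and 22.3 FPKM against 12 and 18.6 FPKM and fell by 0.87 ± 0.28 (adjusted p = 0.0482), just inside the threshold. Utp20, a very large scaffold protein of the processome, was at 12.9, 23.2 and 17.1 FPKM against 7.03 and 9.07 FPKM and fell by 1.02 ± 0.28 (adjusted p = 0.0294). Utp15, Nol11, Nol6, Nop9, Rrp9, Rrp7a and Tsr2 had both OL replicates below every OPC replicate without passing the test. Imp3, which joins U3 snoRNA to the precursor and was the highest small-subunit member, did not differ beyond its spread, at 92.2, 79.0 and 58.1 FPKM in OPCs and 77.5 and 70.9 FPKM in OLs.

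Utp14b was the ribosome biogenesis member that rose. It is a retrotransposed copy of the X-linked Utp14a in the Acsl3 locus, listed here with a transcript of 3 exons, and known for its role in the male germ line. It was at 6.77, 16.5 and 12.3 FPKM in OPCs and at 39.9 and 48.1 FPKM in OLs, with no overlap, a rise of 1.88 ± 0.34 on the log2(FPKM + 1) scale (limma adjusted p = 0.00607). The parent gene Utp14a was listed for OLs only, at 2.05 and 3.59 FPKM. How reads that match both copies were counted is not given in the sources used here, and the listed Utp14b transcript shares 3.3% of its bases with exons of Acsl3 on the same strand, so the split between these genes is uncertain.

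Large-subunit factors were lower for 3 of 11 genes. Nop2, which methylates a cytosine of 28S ribosomal RNA, had the largest fall of all members. It was at 42.2, 42.3 and 44.8 FPKM in OPCs and at 10.9 and 18.8 FPKM in OLs, a fall of 1.52 ± 0.26 on the log2 scale (limma adjusted p = 0.00461). Nol9, a polynucleotide kinase that acts on a cut end of the precursor, was at 34.1, 28.9 and 23.7 FPKM against 11.2 and 10.8 FPKM and fell by 1.3 ± 0.23 (adjusted p = 0.00549). Rrp1b was at 8.23, 11.0 and 7.66 FPKM against 2.47 and 5.48 FPKM and fell by 1.06 ± 0.31 (adjusted p = 0.0357). Of the PeBoW complex, made of Pes1, Bop1 and Wdr12, no gene passed the test: Bop1 was at 121, 75 and 82.4 FPKM in OPCs and 55.5 and 53.7 FPKM in OLs, Pes1 at 15.5, 15.8 and 18 FPKM and 16.3 and 17.0 FPKM, and Wdr12 at 4.84, 7.66 and 5.65 FPKM and 4.53 and 4.52 FPKM. The groups did not overlap for Bop1 and Wdr12 and overlapped for Pes1.

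Nucleolin and nucleophosmin did not pass the test. Npm1 was at 32.7, 59.3 and 41.6 FPKM in OPCs and at 25.1 and 23.0 FPKM in OLs, with no overlap, and Ncl was at 21.0, 71.8 and 44.8 FPKM against 36.8 and 44.4 FPKM, a spread over OPC replicates wider than the distance to OLs. Npm1 has processed copies elsewhere in the genome that can share its reads.

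**Figure D1:**
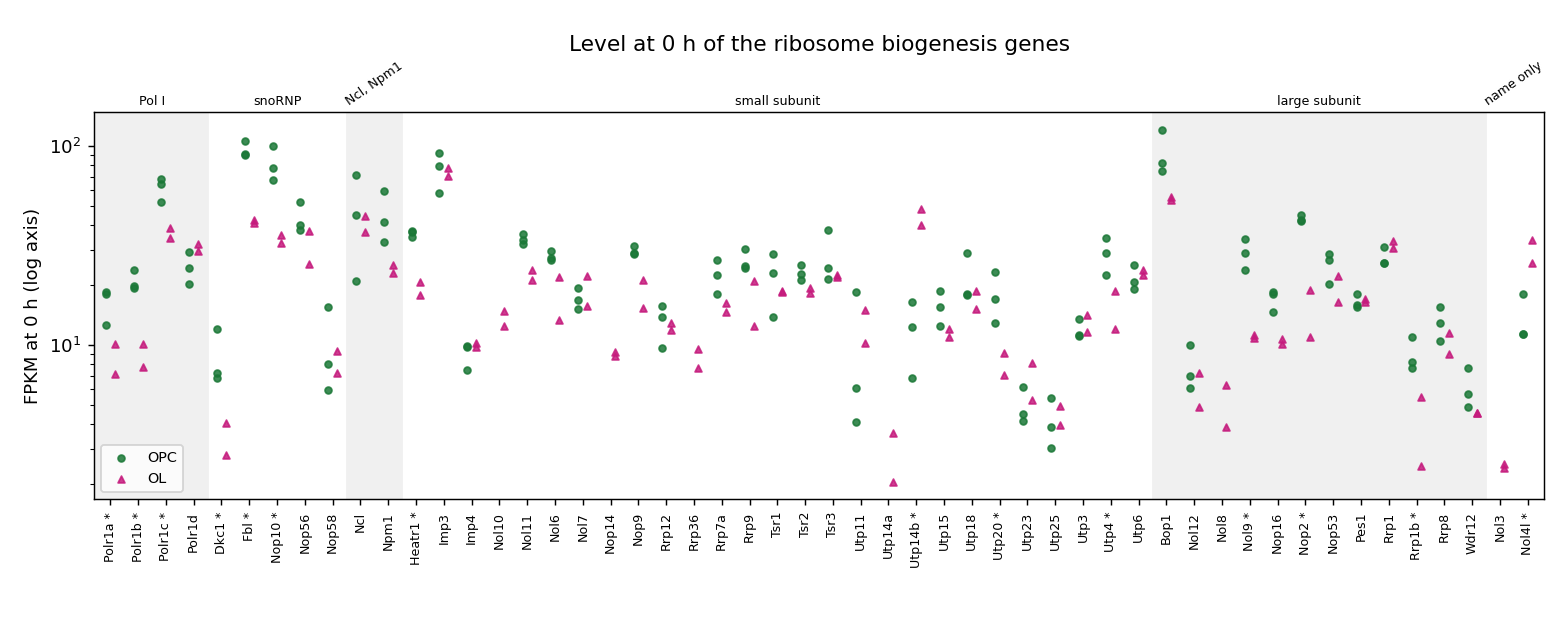
FPKM at 0 h (log axis) of each of the 52 members, with OPC replicates as circles and OL replicates as triangles, grouped by role; a star marks the 14 members called by limma. The OL triangles of Fbl, Nop10, Nop2 and Nol9 sit well under their OPC circles, those of Utp14b and Nol4l above them, and genes with triangles only were listed for OLs only.

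The size of this group of calls depended on the scale and on single libraries. When every library was scaled to the same sum of FPKM, the members called were 5 lower and 2 higher, while the median of the members moved from -0.35 to -0.09, that over all transcripts from -0.01 to 0.28 and their calls from 1294 lower and 1127 higher to 715 lower and 1620 higher. Without OL replicate 1 the calls were 4 lower and 1 higher, without OL replicate 2 they were 4 lower and 0 higher (2 higher at an unadjusted p under 0.05), and without OPC replicate 3 they were 6 lower and 1 higher. Fbl, Nop2 and Nol9 were called under all 10 alternatives, whereas Polr1a and Utp4 lost their call whenever any 1 replicate was left out. Of the 5 fits with a replicate left out, Polr1b and Utp14b kept their call in 4, Nop10 and Dkc1 in 3, Heatr1, Rrp1b and Nol4l in 2 and Utp20 in 1, without OPC replicate 1. The change of Rrp1b was -0.61 without OL replicate 1.

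The chase asked how long the labelled RNA of the members lasted. In OPCs the members were left at a median of 9.45%, 5.55% and 8.37% of their 0 h level after 6 h in replicates 1, 2 and 3, and all transcripts at 14.4%, 11.0% and 17.7%. In OLs the members were left at 22.1% and 38.5% and all transcripts at 31.5% and 36.6%. The OPC medians cover 46 members and 8530 transcripts and the OL medians 52 members and 9751 transcripts. At 2 h the OPC medians of the members were 41.1%, 76.9% and 66.6% and the OL medians 61.2% and 49.4%, so the replicates of a cell type did not share 1 course. The scale of each library acts on every transcript in it and its error was not measured.

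**Figure D2:**
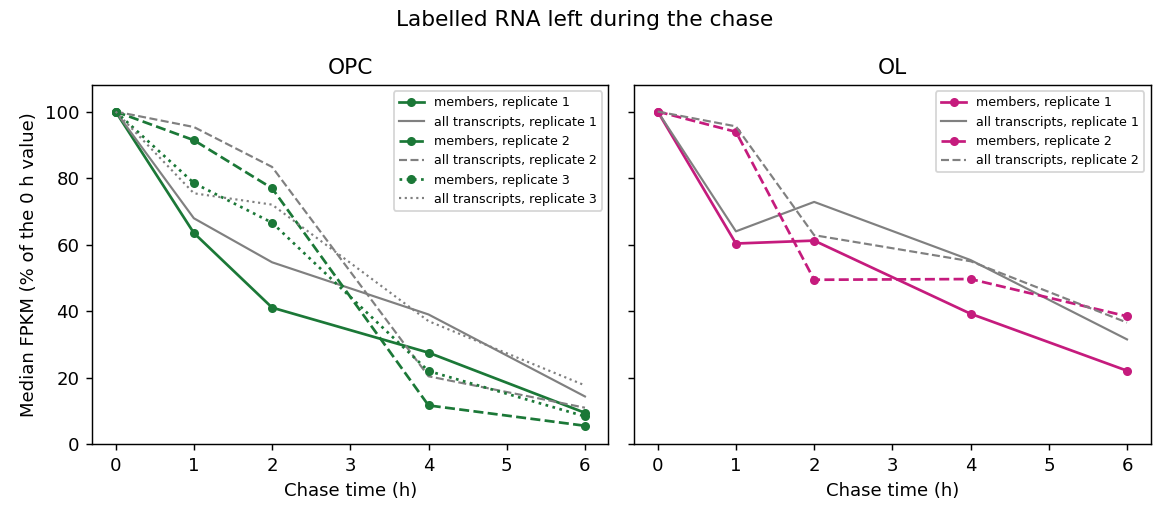
Median FPKM as a percentage of the 0 h value against chase time (h), for OPCs (left) and OLs (right), with coloured lines for the members and grey lines for all listed transcripts of the same replicate. The member lines run under the grey line of their replicate at most time points and end at 5.55% to 9.45% in OPCs and at 22.1% and 38.5% in OLs.

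After 6 h, 26 of 46 members kept a larger share of their 0 h level in both OL replicates than in any OPC replicate and 1, Fbl, kept a smaller share, against 48.9% and 2.86% of all transcripts. For 8 members, Dkc1, Nol9, Nol12, Polr1c, Rrp9, Rrp12, Utp4 and Utp25, FPKM was listed at 0 in all 3 OPC replicates at 6 h and above 0 in both OL replicates, as it was for 4.94% of all transcripts. Polr1c kept 15.4% and 14.7% of its 0 h level in the OL replicates, Utp4 kept 14.9% and 28.1%, and Nol12 kept 41.8% and 38.6%. Dkc1 was uneven, with 19.0% in OL replicate 1 and 107% in OL replicate 2. A group with the opposite behaviour kept most of its label: Fbl was left at 72.7%, 98.0% and 96.3% in OPCs and at 72.0% and 63.8% in OLs, and Nop10 at 73.1%, 150% and 96.9% and at 122% and 57.7%. Npm1 was left at 73.4%, 89.9% and 92.5% in OPCs and at 59.9% and 128% in OLs.

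Chase slopes put the whole course in 1 value, the change of log2(FPKM + 1) per h. In OPCs 41 of 46 members fell by limma and 0 rose (0 at an unadjusted p under 0.05), where 81.7% of all transcripts fell and 4.31% rose. In OLs 42 of 52 fell and 0 rose (0 unadjusted), where 68.4% fell and 1.5% rose. The median slope of the members was -0.50 per h in OPCs and -0.22 per h in OLs, and that of all transcripts was -0.38 and -0.20 per h. The 5 members that did not fall in OPCs were Fbl, Nop10, Ncl, Npm1 and Nol7. With each time point centred on the median of its replicate's 0 h library, which removes the shared decay, 15 of 46 members fell and 8 rose in OPCs, where 1186 of 8530 transcripts fell and 3392 rose. In OLs 8 of 52 fell and 7 rose, where 1345 of 9751 transcripts fell and 3046 rose. Bop1, Fbl, Imp4, Ncl, Nol7, Nop10, Npm1 and Rrp1 were the 8 in OPCs, and Bop1, Fbl, Nol3, Nop10, Nop53, Npm1 and Rrp1 the 7 in OLs, all chosen for naming after their values were seen.

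Slopes were shallower in OLs than in OPCs for 24 of 46 members and steeper for 0 (0 at an unadjusted p under 0.05), in a limma test of 3 against 2 replicate slopes. Over all 8177 transcripts 23.7% were called shallower and 0.0856% steeper. Both OL slopes lay above all OPC slopes in 29 members and below them in 1, against 50.9% and 3.27% of all transcripts. The median difference was 0.26 per h for the members and 0.14 per h for all transcripts. With 0.1 FPKM added in place of 1, 12 members were called shallower, 10 of them among the 24, and the median difference was 0.40 per h for the members and 0.22 per h for all transcripts. With each time point centred 6 were shallower, all among the 24, and 3, Fbl, Ncl and Nol7, were steeper, against 199 shallower and 812 steeper of 8177 transcripts, while the median of the members moved from 0.26 to 0.05 per h and that over all transcripts from 0.14 to -0.07 per h. Without OL replicate 1 the call held for 4 members, Polr1c, Utp4, Nol9 and Rrp9, and without OL replicate 2 for 0 (20 at an unadjusted p under 0.05), when 0 of the 8177 transcripts were called. Without OPC replicate 2 it held for 15 members. Without the 6 h libraries 9 members were called, 6 of them among the 24.

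Among the Pol I subunits 3 of 4 were called, against 23.7% of all transcripts. Polr1c had slopes of -0.94, -1.14 and -1.07 per h in OPCs, the steepest mean of all members, and of -0.32 and -0.43 per h in OLs, a difference of 0.68 ± 0.09 (limma adjusted p = 0.00269). Its size depended on the setting, with 0.46 to 1.21 per h over the alternatives. Polr1b had -0.73, -0.82 and -0.67 per h against -0.44 and -0.31 per h, a difference of 0.37 ± 0.08 (adjusted p = 0.0115), and Polr1a -0.41, -0.67 and -0.51 per h against -0.13 and -0.28 per h, a difference of 0.32 ± 0.09 (adjusted p = 0.027). In these 3 genes the replicate slopes of the cell types did not overlap. Polr1d did not pass, with -0.39, -0.45 and -0.12 per h in OPCs and -0.22 and -0.19 per h in OLs.

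Among snoRNP proteins only Dkc1 was called, with slopes of -0.45, -0.71 and -0.55 per h in OPCs and -0.17 and -0.03 per h in OLs, a difference of 0.47 ± 0.09 (limma adjusted p = 0.00689). Over the alternatives it was 0.26 to 0.92 per h. Nop56 had -0.37, -0.63 and -0.40 per h against -0.18 and -0.23 per h, apart but not called, and Nop58 had -0.30, -0.51 and -0.30 per h against -0.31 and -0.27 per h. Fbl and Nop10 were flat in both cell types, with slopes between -0.12 and 0.10 per h. Ncl had 0.02, -0.16 and 0.03 per h in OPCs and -0.21 and -0.13 per h in OLs.

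Small-subunit factors, 23 of the 46 members tested, held 15 of the 24 calls. Over all transcripts 23.7% were called shallower. Utp4 had slopes of -0.86, -0.98 and -0.92 per h in OPCs and -0.36 and -0.28 per h in OLs, a difference of 0.60 ± 0.08 (limma adjusted p = 0.00269). Over the alternatives it was 0.39 to 1.22 per h. Rrp9, a protein of the U3 snoRNP, had -0.68, -0.81 and -0.81 per h against -0.33 and -0.14 per h, a difference of 0.53 ± 0.09 (adjusted p = 0.00378). Heatr1 had -0.75, -0.93 and -0.85 per h against -0.39 and -0.35 per h, a difference of 0.47 ± 0.08 (adjusted p = 0.00466), and Utp20 had -0.55, -0.76 and -0.54 per h against -0.22 and -0.12 per h, a difference of 0.45 ± 0.09 (adjusted p = 0.00741). The early-binding proteins Heatr1 and Utp4 were thus called, while their partners Utp15 and Nol11 were not: Utp15 had -0.57, -0.68 and -0.52 per h in OPCs and -0.49 and -0.28 per h in OLs, and Nol11 had -0.68, -0.67 and -0.58 per h and -0.60 and -0.24 per h. Whether the partners differ from each other was not tested. Utp14b, which rose at 0 h, had -0.24, -0.52 and -0.40 per h in OPCs and -0.42 and -0.32 per h in OLs.

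Some of the called genes overlap a gene on the other strand, and whether reads were counted by strand is not given in the sources used here. Tsr1 shares 34.2% of its transcript with Srr, Nop9 30.8% with Cideb, Tsr2 30.3% with Fgd1, Rrp7a 15.5% with Serhl and Tsr3 11.7% with Baiap3, so their values may hold reads of these partners. Tsr3, which modifies a base of 18S ribosomal RNA, also varied widely among OPCs, with slopes of -0.43, -0.95 and -0.72 per h against -0.35 and -0.22 per h in OLs. Utp18 was called although its groups overlapped, at -0.67, -0.94 and -0.34 per h in OPCs and -0.35 and -0.10 per h in OLs.

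Large-subunit factors were called for 5 of 11 genes, against 23.7% of all transcripts. Nol9 had slopes of -0.86, -0.95 and -0.85 per h in OPCs and -0.41 and -0.31 per h in OLs, a difference of 0.53 ± 0.08 (limma adjusted p = 0.003). Over the alternatives it was 0.31 to 0.96 per h. Nop2 had -0.67, -0.60 and -0.61 per h against -0.15 and -0.20 per h, a difference of 0.45 ± 0.08 (adjusted p = 0.00433), and Nol12 had -0.52, -0.63 and -0.53 per h against -0.09 and -0.19 per h, a difference of 0.42 ± 0.08 (adjusted p = 0.00609). Pes1 and Rrp1b were the other two. Of the PeBoW complex, Pes1 had -0.43, -0.73 and -0.51 per h in OPCs and -0.25 and -0.22 per h in OLs, Wdr12 had -0.42, -0.49 and -0.42 per h and -0.23 and -0.25 per h, and Bop1 was much flatter, at -0.18, -0.14 and -0.14 per h and -0.04 and -0.12 per h.

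**Figure D3:**
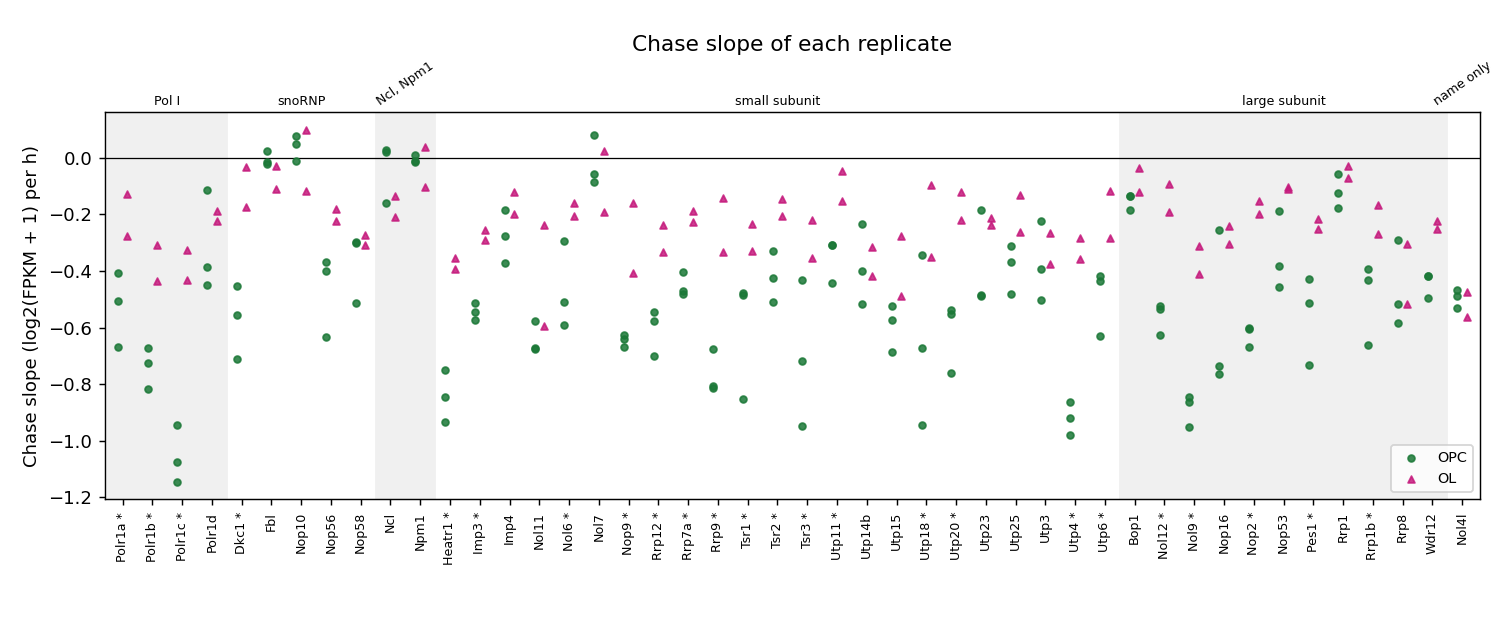
Chase slope (change of log2(FPKM + 1) per h) of each replicate for the 46 members listed for both cell types, with OPC circles, OL triangles and a line at 0; a star marks the 24 members whose slopes limma called different. Polr1c, Utp4, Nol9 and Heatr1 have the lowest mean of OPC circles, with OL triangles far above them, while Fbl, Nop10, Ncl, Npm1 and Nol7 lie near 0.

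Half-lives had been fitted by the authors to each replicate and are capped at 6 h. The median over the 46 members was 1.61, 1.96 and 1.96 h in OPC replicates 1, 2 and 3 and 2.90 and 3.37 h in OL replicates 1 and 2, and the median over all 8112 transcripts was 2.35, 2.08 and 2.83 h and 4.54 and 4.44 h. The ceiling was reached by 5, 7 and 7 members in the OPC replicates and by 8 and 13 in the OL replicates, against 24.5% to 31.6% and 38.8% to 42.3% of all transcripts. Fbl, Nop10 and Npm1 were at the ceiling in all 5 replicates, and 30 members were at it in none. Between these ends lay a few other long-lived members. Ncl was at the ceiling in OPCs and at 3.71 and 6.00 h in OLs, Rrp1 at 4.20, 6.00 and 6.00 h and at the ceiling in OLs, and Bop1 at 4.06, 6.00 and 5.60 h and at the ceiling in OLs. Among the shortest were Rrp1b with 0.63, 0.75 and 1.06 h in OPCs and 2.43 and 1.45 h in OLs, Utp4 with 0.56, 1.93 and 1.40 h and 1.35 and 2.49 h, and Nop14, which was measured in OLs only, with 0.70 and 0.74 h.

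Half-lives can also be set side by side within particles, with no test between members. In the box C/D snoRNP, Fbl stood at the ceiling, while Nop56 was at 1.62, 1.96 and 2.62 h in OPCs and 2.90 and 3.82 h in OLs and Nop58 at 1.91, 1.77 and 3.04 h and 1.2 and 2.03 h. In the H/ACA snoRNP, Nop10 stood at the ceiling and Dkc1 was at 1.86, 1.96 and 1.96 h in OPCs and at 1.17 and 6.00 h in OLs. In the PeBoW complex, Bop1 was long-lived, Pes1 was at 2.63, 1.96 and 2.65 h and 3.20 and 4.27 h, and Wdr12 at 1.44, 1.96 and 1.62 h and 1.61 and 2.61 h.

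Part of these values is set by the form of the fit. Least absolute deviations give a half-life of 1.96 h, whatever the levels, whenever the 1 h and 2 h levels lie on the same side of the fitted curve and the 4 h and 6 h levels lie on the other. In OPC replicate 2, 20 of 46 members and 25.5% of all transcripts held this value within 0.005 h, and in OPC replicate 3 it was 6 members and 7.67%. In OPC replicate 1 and in both OL replicates it was 0 members and 0.431% to 2.18% of all transcripts. Dkc1, Heatr1, Nol9, Nol11, Nol12 and Rrp9 held it in both OPC replicates, so their agreement there does not measure the error of the half-life. A second such value is 1.86 h, given when the 1 h and 4 h levels lie on one side of the curve and the 2 h and 6 h levels on the other. It was held by 3 members in OPC replicate 1, Dkc1, Utp18 and Utp20, by 2 in OPC replicate 3, Utp11 and Utp25, and by 1 in OL replicate 1, Rrp8. All 3 OPC half-lives of Dkc1 were thus values set by the fit.

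The half-life was longer in OLs in 39 of the 46 members by estimate, with a median difference of 0.58 on the log2 scale, against 0.37 over all transcripts. These medians became 0.29 and 0.27 without OL replicate 2, 0.25 and 0.20 without the 6 h libraries, 0.12 and 0 after a refit on the mean decay curve, and -0.32 and -0.53 with each replicate centred on its median. By limma 0 members were called longer (8 at an unadjusted p under 0.05) and 1 shorter, where 3.39% and 0.148% of all transcripts were called. Both OL values lay above all OPC values in 19 members and below them in 1, against 35.9% and 2.01% of all transcripts. The call was Polr1d, with 6.00, 5.76 and 6.00 h in OPCs and 3.10 and 2.84 h in OLs, a fall of 0.99 ± 0.05 on the log2 scale (adjusted p = 0.016). OPC replicates 1 and 3 are tied at the ceiling, which bears on this small error, and its level at 6 h was 12.4%, 12.1% and 62.1% of 0 h in OPCs and 26.2% and 48.2% in OLs, which overlap. The call was lost without any 1 of the OPC replicates and with the replicate number as a block. It was also lost with each replicate centred on its median and after a refit on the mean decay curve. Nop2 came next, with 1.37, 1.79 and 1.0 h in OPCs and 4.45 and 4.19 h in OLs and no overlap. It did not pass on the log2 scale and was called longer on the scale of hours and when transcripts at the ceiling were left out.

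**Figure D4:**
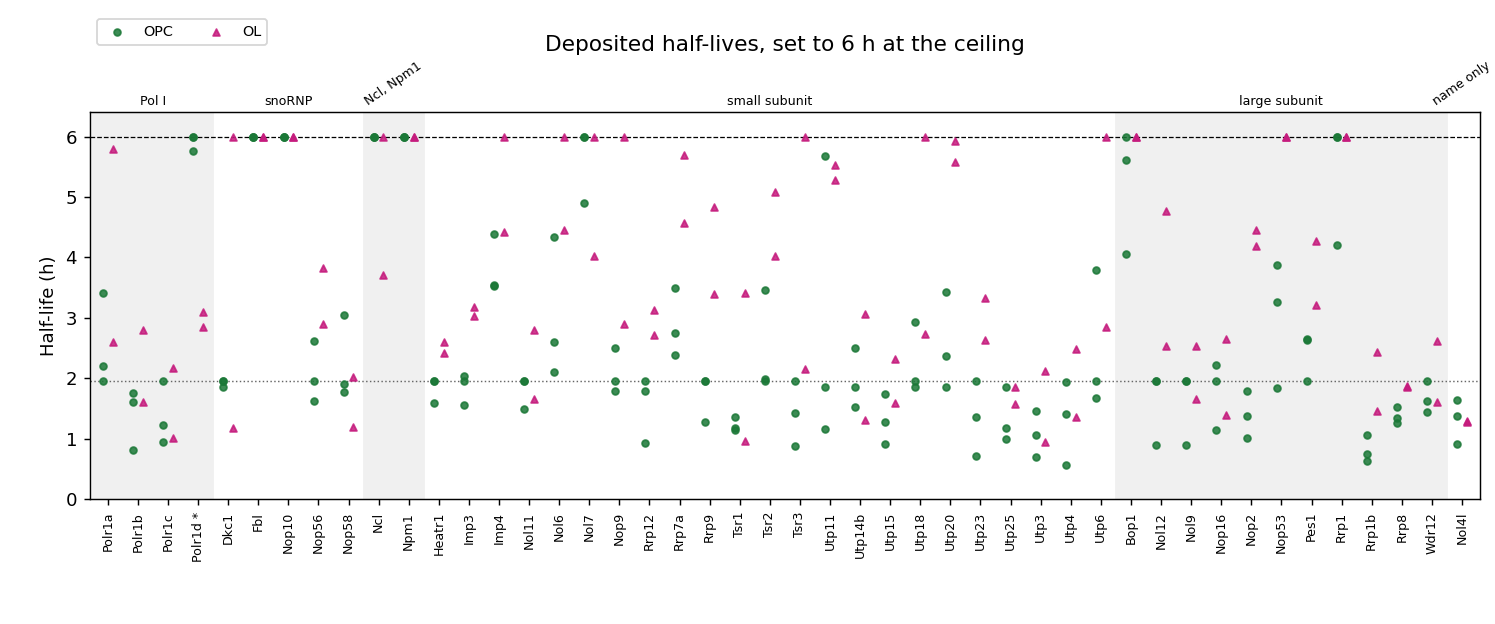
Half-life (h) of each replicate for the same 46 members, with OPC circles, OL triangles, a dashed line at the 6 h ceiling and a dotted line at 1.96 h, the more frequent of the values fixed by the form of the fit; the star marks Polr1d. Many OPC circles lie on the dotted line, and Fbl, Nop10 and Npm1 lie on the dashed line in all 5 replicates.

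Ranks within a replicate remove the shared scale. Among all half-lives, the members had a median percentile of 29.6, 38.4 and 32.6 for OPCs and of 32.7 and 37.1 for OLs, so the members lay in the shorter-lived part of the transcripts of both cell types. Of 46 members 0 were called by limma in either direction (3 higher and 1 lower at an unadjusted p under 0.05), where 0.185% of transcripts were called higher and 0.0986% lower. The median change of percentile was 0.47 for the members and -2.35 for all transcripts. It was -4.87 against -3.37 without OL replicate 2 and -0.69 against -4.05 without OPC replicate 1, so its sign rests on these replicates. By the percentile of the chase slope the members were at 31.0, 25.6 and 25.1 in OPCs and at 41.3 and 45.9 in OLs.

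Other genes of the pathway were counted from a separate list of 120 genes, of which 91 were listed for OPCs, 105 for OLs and 89 for both. At 0 h 21 of 89 were lower in OLs and 1 was higher, with a median change of -0.41 on the log2 scale, where 15.8% and 13.8% of all transcripts were called. The largest falls were those of Exosc8, a subunit of the RNA exosome, at 27.2, 30.7 and 34 FPKM in OPCs and 7.81 and 8.73 FPKM in OLs, of Noc4l at 27.6, 21.3 and 30.7 FPKM and 6.93 and 10.6 FPKM, and of Pa2g4 at 115, 89.8 and 89.6 FPKM and 39.5 and 35.5 FPKM. Sbds, which frees the large subunit for translation, was the gene that rose, at 14.5, 9.79 and 10.2 FPKM in OPCs and 27.8 and 22.7 FPKM in OLs. By group, small-subunit factors were lower in 9 of 24, large-subunit factors in 8 of 41, snoRNP and assembly proteins in 3 of 9, exosome subunits in 1 of 10 and further Pol I factors in 0 of 5 (0 at an unadjusted p under 0.05). The chase slope was shallower in OLs in 36 of 89 and steeper in 0 (0 unadjusted), where 23.7% of all transcripts were called shallower, led by Znrd1 (0.53 per h), Exosc10 (0.52 per h) and Pelp1 (0.52 per h), and 0 half-lives were called (14 at an unadjusted p under 0.05).

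Across the 46 members, the chase slope in OPCs went with the Lys share of the coding sequence with a Spearman correlation of 0.43, and in OLs with 0.32. With the half-life, the other measure of decay, it was 0.15 in OPCs and 0.04 in OLs. Between the AAA share of Lys codons and the slope it was 0.09 in OPCs and -0.11 in OLs, and -0.29 with the change of half-life. For the OPC slope it was also -0.39 with coding length, 0.32 with the AAA share of all codons and 0.30 with the length of the 3′ UTR. It was -0.11 with G+C at wobble positions and -0.09 with the UUU share of all codons. These points share the same libraries, and the values describe these genes only. ATTTA, the core of AU-rich decay elements, was present in the 3′ UTR of 27 of 52 members (51.9%), against 69.9% of all transcripts, and the 3′ UTR of members was shorter, with a median of 862 against 1096 bases.

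Of the members matched by name only, Nol4l rose in OLs, from 17.9, 11.3 and 11.3 FPKM to 33.6 and 25.8 FPKM at 0 h, by 1.10 ± 0.27 on the log2 scale (limma adjusted p = 0.0199), and was short-lived in both cell types, with half-lives of 0.92, 1.37 and 1.64 h and of 1.28 and 1.3 h. Nol3, a repressor of apoptosis, was listed for OLs only, at 2.41 and 2.52 FPKM, and stood at the ceiling of half-life in both replicates. Its transcript shares 48.2% of its bases with a gene on the other strand. Without these 2 genes the ribosome biogenesis members called at 0 h were 12 lower and 1 higher, and the 24 shallower slopes were the same.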

How the data were processed

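Per the paper's methods and the submitters' processing notes, the authors removed adapters (fastx_clipper), mapped the reads with HISAT2 2.1.0 on GRCm38 and obtained FPKM with StringTie 1.3.5 and ballgown over canonical coding transcripts of GENCODE vM9. The deposited FPKM at 0 h are unscaled, and later FPKM were scaled by the authors to a labelled spike-in. Transcripts under 1 FPKM at 0 h, or at 0 FPKM at 1 h and 2 h, had been removed by them, and no listed value at these times is 0. The other deposited values are half-lives in h, fitted by the authors per replicate as exponential decay by least absolute deviations with a ceiling that was set here to 6 h.

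From these values, limma 3.58.1 (R 4.3.3) was fitted to log2(FPKM + 1) at 0 h, to log2 half-lives, to their percentiles, to the slope of the chase within each cell type (1 intercept per replicate) and to 1 slope per replicate between cell types, always over all transcripts, two-sided, with Benjamini-Hochberg adjusted p under 0.05. Replicates are biological per the paper's methods. Half-lives tied at the ceiling have a variance of 0, and their limma error stayed small, at 0.012 on the log2 scale for Fbl, Nop10 and Npm1. Such an error does not measure the spread above the ceiling. Coding sequences, 3′ UTRs and overlaps came from GENCODE M21 on GRCm38 by transcript identifier, promoters from RefSeq by symbol, on GRCm38.p6. Python 3.11.15 with pandas 2.3.3 was used.

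The symbol rule for the members reads no measured value, but this rule, the gene lists, roles and tests were chosen with earlier results of these data known. Any member could be named, with a change, error and p only where it passed a test. Of the wider list, counts and the 3 largest called changes in each direction are given. Alternatives were another pseudocount, a minimum of 5 FPKM, other scalings, no 6 h libraries, leaving out each replicate and a replicate block. The OL replicates match a pair of OPC replicates, but which numbers correspond is not given in the sources used here, so the main fits have no block.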

Additional observations from a re-analysis of the deposited data

Results flagged for a closer look

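The chase slope, the change of log2(FPKM + 1) per h, differed between OLs and OPCs in 24 members by the test of the difference itself (limma, adjusted p between 0.00269 and 0.0494), each time shallower in OLs. Over all 8177 transcripts 23.7% were called shallower, so the shift was not limited to the members. With each time point centred 6 of the 24 stayed called. Among Pol I subunits the difference was 0.68 per h for Polr1c, 0.37 per h for Polr1b and 0.32 per h for Polr1a. Over the alternatives it was 0.46 to 1.21, 0.15 to 0.55 and 0.11 to 0.44 per h in these genes. The values below are those of the main fit and moved with the setting as well. Dkc1 was the snoRNP protein concerned, with 0.47 per h. Of the small-subunit factors, Utp4 differed by 0.60 per h, Rrp9 by 0.53, Heatr1 by 0.47, Utp20 by 0.45, Utp18 by 0.43 and Tsr3 by 0.41 per h. Smaller differences were those of Nop9 with 0.36 per h, Tsr1 and Rrp12 with 0.32 each, Utp6 with 0.29, Nol6 with 0.28, Imp3 with 0.27 and Utp11, Rrp7a and Tsr2 with 0.25 each. Of the large-subunit factors, Nol9 differed by 0.53 per h, Nop2 by 0.45, Nol12 by 0.42, Pes1 by 0.32 and Rrp1b by 0.28 per h. The OL and OPC replicate slopes overlapped for Utp18 and for none of the other 23. None of these calls held without OL replicate 2 (20 members at an unadjusted p under 0.05).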

How the results depend on the processing

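Values are numbers of members called by limma. At 0 h the 14 calls became 7 with libraries scaled to the same sum of FPKM and 4 to 14 when 1 replicate was left out. Half-lives gave 1 call, 2 on the scale of hours, 0 with replicates centred on their medians and 0 to 2 when 1 replicate was left out. With each time point centred, calls of the chase slope went from 41 to 23 in OPCs and from 42 to 15 in OLs. Differences of slope were 24 in all, 12 with 0.1 FPKM added (10 of the 24), 9 with each time point centred (6 of the 24 and 3 others that were steeper), 9 without the 6 h libraries (6 of the 24) and 0 to 23 when 1 replicate was left out. Among 46 members 0 changed percentile under the main setting and every alternative run (limma; 1 to 6 higher and 1 to 4 lower at an unadjusted p under 0.05). No direction of a called member reversed. Whether replicate numbers mark the OL and OPC replicates of the same cells was not shown: deviations of same-numbered replicates correlated at 0.0589 and 0.0102 at 0 h, -0.00162 and -0.105 for half-lives and -0.0258 and -0.101 for slopes. With the replicate number as a block, the calls were 12 at 0 h, 0 for half-lives, 0 for percentiles and 26 for the difference of slope, and at 0 h the calls of Polr1c (adjusted p = 0.143) and Heatr1 (adjusted p = 0.0534) were lost. Leaving out transcripts at a fixed value of the fit, an alternative chosen after seeing the data, kept Polr1d as the 1 call among 22 members. Depth cannot be read from FPKM, so counting error has no estimate here.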
